A study of Rattus norvegicus with 6 samples.

Results

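The genes described here encode the proteins of the 2 ribosomes of a rat cell, the cytosolic ribosome that translates nuclear messages and the mitochondrial ribosome that translates messages of the mitochondrial genome. They were chosen by symbol alone, as names beginning with Rpl or Rps followed by a number (or by p for the stalk proteins), Rpsa, Mrpl or Mrps, without the S6 kinase genes and without Rps27a. The rule found 154 of the 16876 gene symbols in the count table, 85 cytosolic and 69 mitochondrial. Of the cytosolic genes, 51 carry large-subunit names and 34 small-subunit names, and of the mitochondrial genes 41 and 28. The rule reads names only, so it also took the S19 binding partner Rps19bp1, the pseudogene-named Rpl37a-ps1 and Rps4x-ps1, and the paralogues Rpl3l, Rpl22l1, Rpl36al, Rpl39l, Rps27l and Rps4y2.

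RNA was counted in 6 libraries of rat (Rattus norvegicus) primary cultured cells labelled microglia, the resident macrophages of the brain, kept for 24 h with PSNPs (polystyrene nanoplastics, 3 libraries) or with the near-infrared dye IR-813 (3 libraries). The microglia were shaken off mixed cultures, and all 6 libraries were made from polyadenylated RNA. The labels give no dose, strain, animal age or untreated group, and in the deposited tables the IR-813 columns carry the name con. Nothing in the labels says that replicates came from separate cultures, so p-values measure the spread between these libraries, which may be technical.

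A ribosome is built from ribosomal RNA and equal numbers of most of its proteins, so the genes of the cytosolic set are usually expressed together at very high levels. Many of their messages begin with a C followed by a run of pyrimidines, the TOP sequence, through which mTORC1 and the RNA-binding protein LARP1 control their translation. The mitochondrial set is encoded in the nucleus, made in the cytosol and imported into mitochondria, where its ribosome makes core subunits of the respiratory chain.

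The start sequences are shown because the TOP run is described for many messages of the cytosolic set. RefSeq promoter windows of assembly GRCr8, which is not the build of the deposited files, were found by symbol for 120 of the 154 genes, 66 cytosolic and 54 mitochondrial. Each line gives 15 bases before the annotated start and 15 bases from it, 5′ to 3′, and capitals mark a run of C followed by at least 4 C or T that begins within 1 base of the start. The first 4 are cytosolic genes with such a run, then 2 cytosolic and 2 mitochondrial genes without it.
Rpl10 (chrX:157205835-157205864, plus strand): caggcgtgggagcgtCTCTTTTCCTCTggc
Rpl19 (chr10:83519049-83519078, plus strand): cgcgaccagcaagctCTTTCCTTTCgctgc
Rplp0 (chr12:46718376-46718405, minus strand): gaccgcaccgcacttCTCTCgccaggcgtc
Rpl37 (chr2:55942930-55942959, plus strand): tggtaggcgtactttCTCTTCCggtctctt
Rpl11 (chr5:153560788-153560817, minus strand): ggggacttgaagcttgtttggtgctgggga
Rps27l (chr8:76443643-76443672, plus strand): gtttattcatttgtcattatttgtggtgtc
Mrps17 (chr12:32587798-32587827, minus strand): agcgagggctacggatctgggtattgggtt
Mrps10 (chr9:21122439-21122468, minus strand): ggcacggctgtgatcccggaagcgatcgtg

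With the C exactly at the annotated start, the run was present in 36.4% of 66 cytosolic windows, 3.57% of 56 mitochondrial windows and 2.63% of all 33469 windows. With the C within 1 base it was present in 51.5%, 8.93% and 5.85%. The sequence CCGGAAG, of the kind bound by ETS factors such as GABPA, was searched on both strands of the 300-base windows. It lay in 30.3% of cytosolic and 32.1% of mitochondrial windows, against 8.75% of all. AAGATGGCG, of the kind bound by YY1 and able to share its first 3 letters with CCGGAAG, lay on either strand in 4.55%, 16.1% and 1.73%. GCATGCGC, of the kind bound by NRF1, lay on either strand in 4.55%, 8.93% and 2.47%, and TATAAA in 12.1%, 14.3% and 14.2%. A match describes the letters of a window and is not a site.

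**Figure D1:**
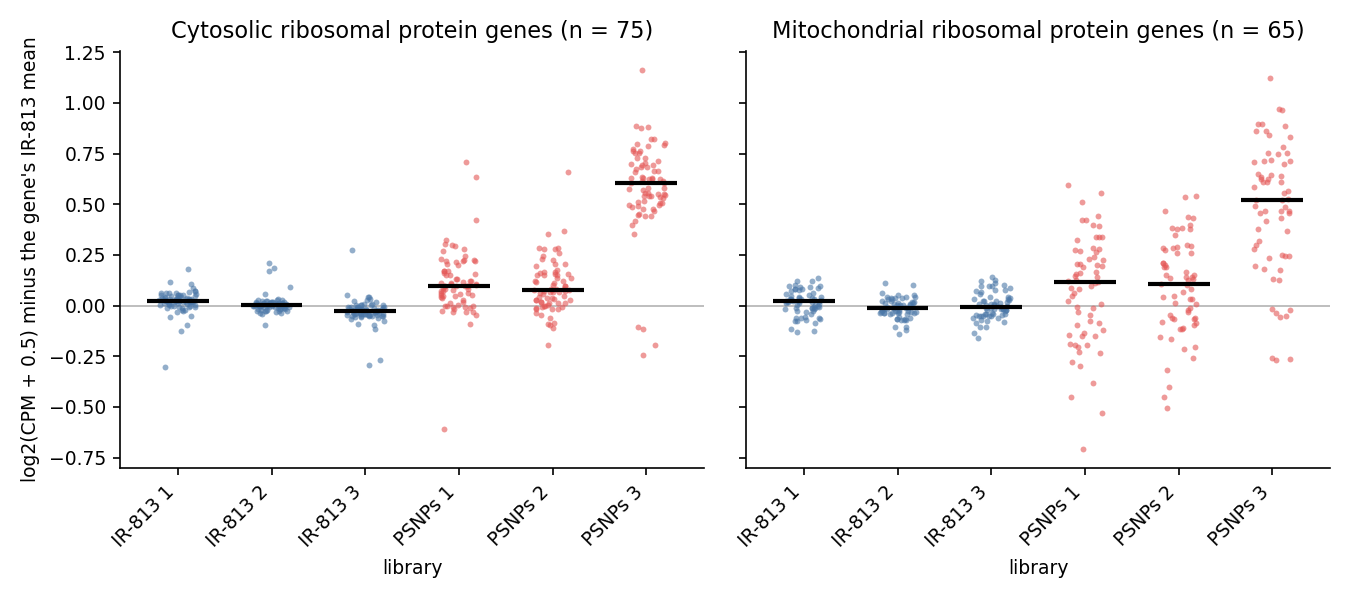
Each point is 1 tested gene in 1 library, as log2(CPM + 0.5) minus the mean of that gene over the 3 IR-813 libraries, and black bars are medians over the 75 cytosolic or 65 mitochondrial genes. The medians of PSNPs replicates 1 and 2 lie at 0.10 and 0.08 for cytosolic genes, and that of PSNPs replicate 3 lies at 0.61.

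Most cytosolic ribosomal protein genes had slightly higher levels with PSNPs than with IR-813, and most of the size of the difference came from 1 library. With a term that takes out differences shared by genes of similar length, by a proxy described below, the median turned to −0.06. The cytosolic genes together took 4.30%, 4.24% and 4.21% of all counts in IR-813 replicates 1 to 3, and 4.29%, 4.31% and 6.12% in PSNPs replicates 1 to 3. PSNPs replicate 3 was far above the other 5 libraries, which lay close together. The mitochondrial genes took 0.255%, 0.251% and 0.255% with IR-813, and 0.251%, 0.256% and 0.336% with PSNPs. The widest 95% exact binomial interval of these shares was ± 0.0106 percentage points for the cytosolic and ± 0.00256 for the mitochondrial set, for counting error only. On library sizes scaled by TMM, the summed cytosolic level was 41444 ± 802 CPM (SD, n = 3) with IR-813 and 50340 ± 10730 CPM (SD, n = 3) with PSNPs, a ratio of 1.215 that was 1.065 without PSNPs replicate 3. The summed mitochondrial level was 2473 ± 23.6 CPM (SD, n = 3) and 2882 ± 487 CPM (SD, n = 3), a ratio of 1.166 that was 1.052 without that library. The difference between the group means of each set was smaller than the SD of the PSNPs group, and 3 libraries against 3 cannot go below p = 0.1 in an exact 2-sided permutation test.

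PSNPs replicate 3 was the highest of the 3 PSNPs libraries for 71 of 75 cytosolic and 63 of 65 mitochondrial genes, against 5249 of all 11679 tested genes. The median SD over PSNPs libraries, on the log2 scale, was 0.30 for cytosolic and 0.25 for mitochondrial genes, against 0.04 and 0.06 over IR-813 libraries. Over all tested genes it was 0.20 and 0.08. PSNPs replicates 1, 2 and 3 stood above the range of the IR-813 libraries for 55, 50 and 71 of the 75 cytosolic genes, and below it for 5, 7 and 2. For the 65 mitochondrial genes they stood above it for 36, 37 and 57, and below it for 21, 20 and 4. These counts for single libraries were not made over all tested genes, so they are not read as particular to the 2 sets. Of all tested genes, 30.0% had all 3 PSNPs libraries above all 3 IR-813 libraries and 31.4% had them below. The ratio of cytosolic to mitochondrial counts was 16.9, 16.9 and 16.5 with IR-813 and 17.1, 16.8 and 18.2 with PSNPs, so the proportion of the 2 sets was highest in PSNPs replicate 3.

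Total counts were 19166605 to 22553507 per library, and genes with a count numbered 13001 to 13255. Ribosomal RNA genes took 0.680%, 0.806% and 0.310% of the counts with IR-813 and 1.56%, 0.379% and 0.501% with PSNPs, so PSNPs replicate 3 was not the extreme library in this respect. By Pearson correlation of log2 CPM over tested genes it did stand apart. It was at 0.9749 and 0.9727 with PSNPs replicates 1 and 2, which were at 0.9961 with each other. With the IR-813 libraries it was at 0.9249 to 0.9325, against 0.9518 to 0.9597 for PSNPs replicates 1 and 2. The label microglia was checked against 8 markers, whose summed level was 787 to 1038 CPM with IR-813 and 465 to 600.2 CPM with PSNPs. Markers of astrocytes summed to 6296 to 8094 and 7518 to 8344 CPM, and those of oligodendrocytes to 6027 to 7009 and 3275 to 3766 CPM. Both sums were above that of the microglia markers in every library. The libraries thus held RNA of other brain cells, and these markers did not bear out the label, although summed CPM do not measure shares of cells. Neuronal markers summed to 380 to 393 and 162 to 194 CPM, markers of proliferating cells to 601 to 672 and 594 to 675 CPM, and markers of fibroblasts, pericytes and endothelium to 69.7 to 101 and 44.5 to 56.4 CPM. Each list had 8 genes, and none was at 0 in every library except 1 of the last list. By the test described below, 4 of 8 astrocyte markers were called higher and 0 lower, with a median log2 fold change of 0.41. Of the microglia, oligodendrocyte and neuron markers 7, 8 and 6 of 8 were called lower and 0 higher. Of all tested genes 20.9% were called higher and 20.1% lower. The summed markers of microglia, of oligodendrocytes, of neurons and of fibroblasts, pericytes and endothelium were lower in every PSNPs library than in every IR-813 library, and their part in the results below was not tested. In such bulk samples, fewer cells of a type and less RNA per cell cannot be told apart.

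Calls come from edgeR's quasi-likelihood test over all 11679 genes that passed a filter on low counts, with a Benjamini-Hochberg adjusted p under 0.05. Of all tested genes 20.9% were called higher and 20.1% lower with PSNPs, or 41.0% in either direction. On library size alone the split of all calls was 1943 higher and 2852 lower, against 2439 and 2351 with TMM. Of the 154 genes, 140 passed the filter, 75 cytosolic and 65 mitochondrial. Of the 75 cytosolic genes 8 rose, 0 fell and 67 did not pass, so the share that rose was below that of all genes. At an unadjusted p under 0.05, edgeR had 18 higher and 0 lower. At an adjusted p under 0.05, DESeq2 called 11 higher and 0 lower. Of the 65 mitochondrial genes 17 rose, 2 fell and 46 did not pass. The median log2 fold change was 0.28 for cytosolic genes (range −0.39 to 0.87) and 0.26 for mitochondrial genes (range −0.52 to 0.76), against −0.01 for all genes. The estimate was positive for 74 of the 75 cytosolic genes and for 54 of the 65 mitochondrial genes. The SD of the log2 fold change over genes was 0.16 for the cytosolic and 0.27 for the mitochondrial set, so the cytosolic genes differed less from each other. All 3 PSNPs libraries lay above all 3 IR-813 libraries for 48 cytosolic and 31 mitochondrial genes and below them for 0 and 4, against 30.0% and 31.4% of all genes, or 61.4% in either direction.

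Without PSNPs replicate 3 more genes passed, and the medians of both sets were smaller. Of the cytosolic genes 22 were then higher and 0 lower, 7 of them among the 8 called with all libraries, and edgeR had 27 higher and 0 lower at an unadjusted p under 0.05. Of the mitochondrial genes 23 were higher and 10 lower, which included all 17 and both of the calls with all libraries. The median log2 fold change was then 0.09 for the cytosolic and 0.10 for the mitochondrial set. Of all genes tested in that fit, 30.4% were called higher and 29.5% lower. Without IR-813 replicate 1, 2 or 3 the cytosolic count fell to 1, 1 and 2 and the mitochondrial count of higher genes to 2, 2 and 6. The count of lower mitochondrial genes was 0 without IR-813 replicate 1 or 2 or PSNPs replicate 1, and 1 without IR-813 replicate 3 or PSNPs replicate 2. Of the 27 calls, those of Rps27l and Mrps36 held in all 15 alternative settings, and the other 25 in 5 to 14 settings.

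**Figure D2:**
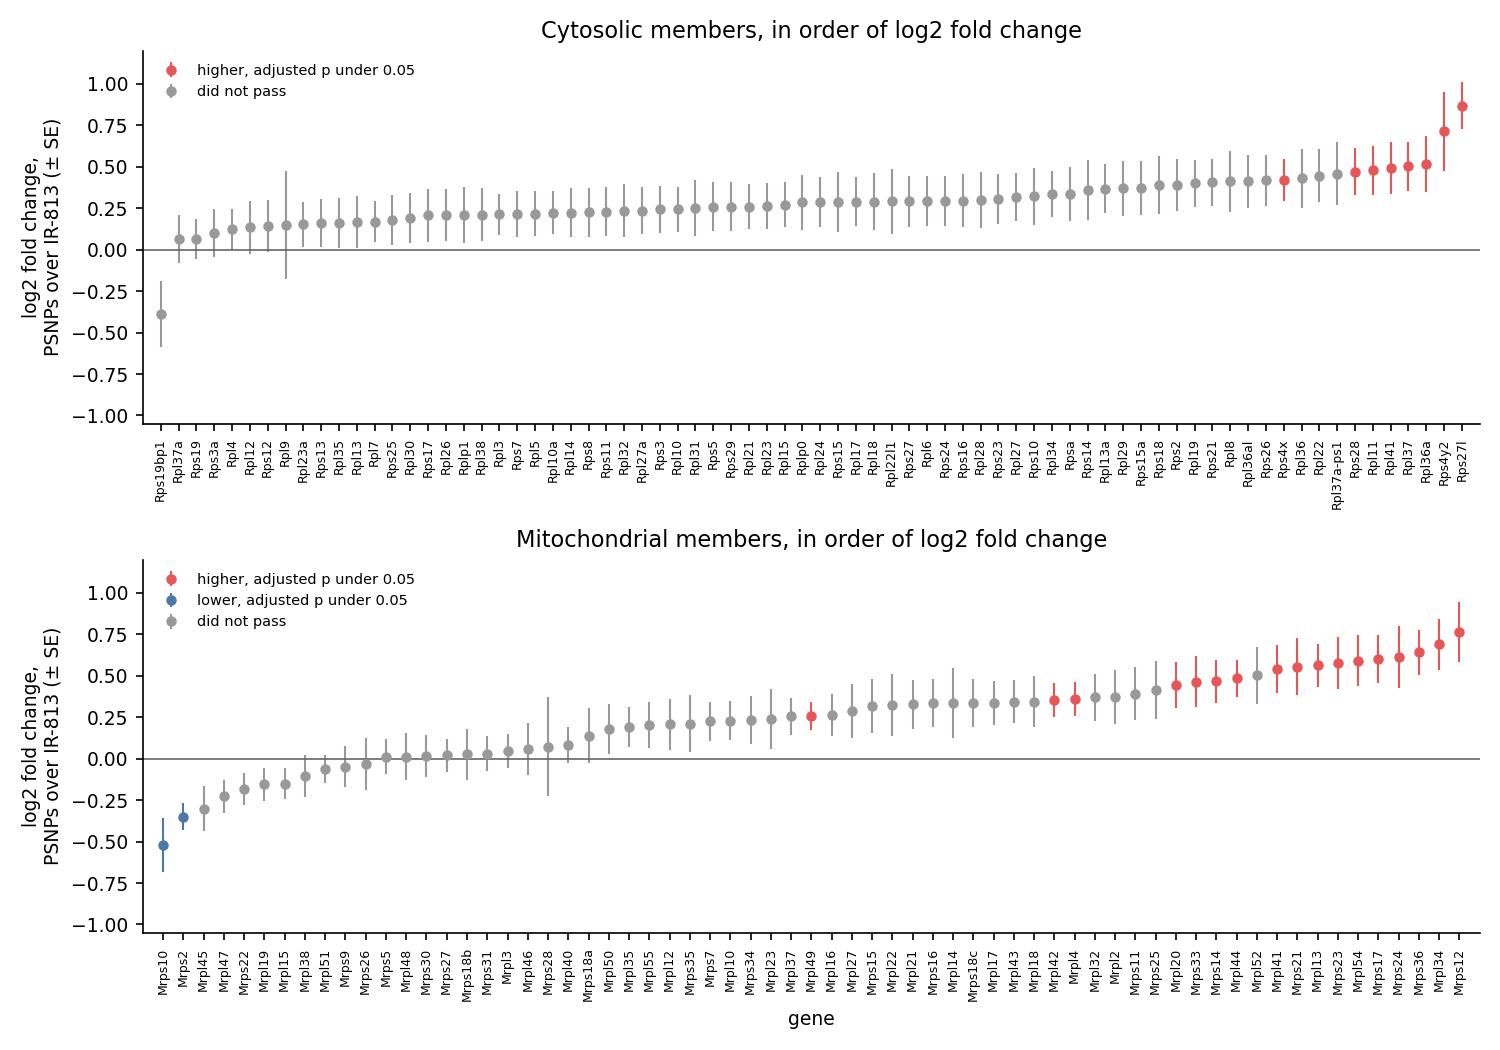
Log2 fold changes with standard errors (edgeR) of 74 of the 75 cytosolic genes (top) and the 65 mitochondrial genes (bottom), in order of size, with genes that passed the test in colour. Cytosolic estimates run from −0.39 to 0.87 with 1 below 0, and mitochondrial estimates from −0.52 to 0.76 with 11 below 0.

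Of the cytosolic genes with small-subunit names, 4 of 30 tested rose and 0 fell, with a median log2 fold change of 0.29. At an unadjusted p under 0.05, edgeR had 0 lower among all 75 cytosolic genes. Rps27l, a p53-inducible paralogue of the small-subunit protein Rps27, had 82.2, 83.2 and 81.2 CPM in the IR-813 libraries and 134.7, 130.3 and 184.9 CPM in the PSNPs libraries. Every PSNPs library was well above every IR-813 library, and the 3 IR-813 values were almost equal. Its log2 fold change was 0.87 ± 0.14 (SE, n = 3 against 3; edgeR adjusted p = 0.0035), the largest of the 140 tested ribosomal protein genes. It passed in all 15 alternative settings, and was 0.69 ± 0.04 without PSNPs replicate 3.

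Rps27 itself, a zinc-binding protein of the small subunit, had 373, 372 and 361 CPM with IR-813 and 395, 390 and 570 CPM with PSNPs. Its log2 fold change of 0.29 ± 0.15 did not pass (edgeR adjusted p = 0.168). The pair therefore differed in size and in outcome, although the difference between them was not tested. Rps4x, an X-linked small-subunit protein, had 1044, 1011 and 978 CPM with IR-813 and 1226, 1231 and 1601 CPM with PSNPs. The groups did not overlap, and its log2 fold change was 0.42 ± 0.13 (edgeR adjusted p = 0.0352). Its paralogue Rps4y2 stood at only 1.97, 2.61 and 3.19 CPM against 4.23, 3.40 and 5.11 CPM, at 0.71 ± 0.24 (edgeR adjusted p = 0.0479), and did not pass without PSNPs replicate 3 (adjusted p = 0.0646). Reads of such near-identical copies may be shared, so its value is uncertain.

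Rps28, a short protein of the small subunit, had 235.4, 246.7 and 251.5 CPM with IR-813 and 305.9, 292.3 and 419 CPM with PSNPs, at 0.47 ± 0.14 (edgeR adjusted p = 0.036). Its groups did not overlap. Rps3, which lines the entry channel of the message, had 704, 668 and 665 CPM against 713, 711 and 986 CPM, at 0.24 ± 0.14 (edgeR adjusted p = 0.207). Rpsa, the laminin receptor protein of the small subunit, had 1565, 1530 and 1467 CPM against 1687, 1645 and 2428 CPM, at 0.34 ± 0.16 (edgeR adjusted p = 0.141). Both had PSNPs replicates 1 and 2 just above the IR-813 values and replicate 3 far above, and neither passed.

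Of the cytosolic genes with large-subunit names, 4 of 45 tested rose and 0 fell, with a median log2 fold change of 0.26. Rpl11, which with Rpl5 and 5S ribosomal RNA forms the particle that binds MDM2, had 448, 429 and 433 CPM with IR-813 and 540, 530 and 757 CPM with PSNPs. Its groups did not overlap, and its log2 fold change was 0.48 ± 0.15 (edgeR adjusted p = 0.037). It was 0.29 ± 0.04 without PSNPs replicate 3 (adjusted p = 0.00103). Rpl5 had 868, 811 and 816 CPM with IR-813 and 869, 860 and 1174 CPM with PSNPs, at 0.22 ± 0.14 (edgeR adjusted p = 0.238). Its groups overlapped, since PSNPs replicate 2 lay under IR-813 replicate 1. The genes of the 2 proteins of that particle thus had different outcomes, although the difference between them was not tested.

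Rpl41, a very short basic peptide between the subunits, had 912, 918 and 916 CPM with IR-813 and 1126, 1114 and 1621 CPM with PSNPs, at 0.49 ± 0.16 (edgeR adjusted p = 0.0428). Rpl37, a zinc-binding protein, had 21.9, 22.2 and 22.6 CPM against 26.8, 28.8 and 38.7 CPM, at 0.50 ± 0.15 (edgeR adjusted p = 0.0342). Rpl36a had 179, 170 and 170 CPM against 212, 209.9 and 320.3 CPM, at 0.52 ± 0.17 (edgeR adjusted p = 0.0469). In all of these genes the 3 IR-813 values were nearly equal and PSNPs replicate 3 was the highest. The paralogue Rpl36al, at 0.41 ± 0.16, did not pass (edgeR adjusted p = 0.0782).

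The stalk proteins recruit elongation factors to the ribosome. Rplp0, the stalk base and the most abundant cytosolic gene by CPM, had 2046, 2092 and 1993 CPM with IR-813 and 2186, 2126 and 3156 CPM with PSNPs, at 0.28 ± 0.17 (edgeR adjusted p = 0.208). Rplp1 had 1080, 1065 and 1020 CPM against 1048, 1043 and 1570 CPM, at 0.21 ± 0.17 (edgeR adjusted p = 0.353). For Rplp1 the first 2 PSNPs libraries lay within the IR-813 range, so its positive estimate rests on PSNPs replicate 3, and without it was −0.01. Rpl3 and Rpl10, which sit close to the site of peptide bond formation, were at 0.21 ± 0.12 and 0.24 ± 0.13 and did not pass.

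Rpl26, a large-subunit protein that also binds p53 messages, and Rpl7 were at 0.21 ± 0.16 and 0.17 ± 0.13, and neither passed. Rpl22 had 192.0, 192.6 and 193.5 CPM against 224, 228 and 335 CPM, at 0.45 ± 0.16 (edgeR adjusted p = 0.0611), and its paralogue Rpl22l1 was at 0.29 ± 0.20 with overlapping groups. Without PSNPs replicate 3 Rpl22 passed, at 0.23 ± 0.04 (edgeR adjusted p = 0.00224). Rps19bp1 was the only tested cytosolic name with a negative estimate, at −0.39 ± 0.20 (edgeR adjusted p = 0.162), and is not itself a subunit. It was picked out after its value was seen. Leaving out the paralogues, the pseudogene-named genes and Rps19bp1, 6 of 69 genes rose, 0 fell, and the estimate was positive for all 69.

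**Figure D3:**
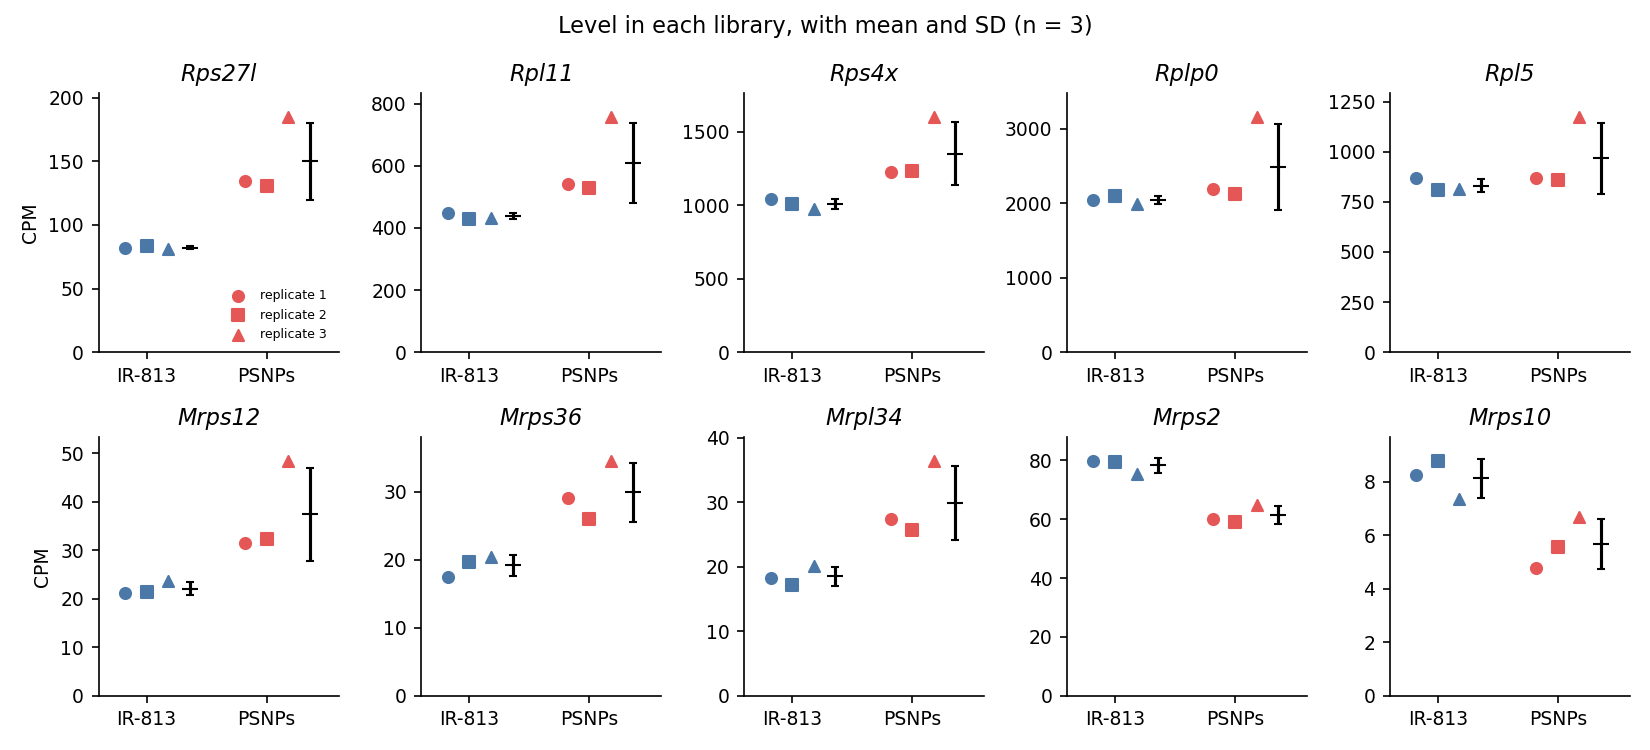
CPM on TMM-scaled library sizes of 10 genes in each library (blue IR-813, red PSNPs, symbols for replicates 1 to 3), with mean and SD in black and axes from 0. Rps27l, Rpl11, Rps4x, Mrps12, Mrps36 and Mrpl34 have all PSNPs points above all IR-813 points, Rplp0 owes most of its difference to PSNPs replicate 3, the groups of Rpl5 overlap, and Mrps2 and Mrps10 have all PSNPs points below.

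Of the 65 tested mitochondrial genes 26.2% were called higher and 3.08% lower, against 20.9% and 20.1% of all tested genes. Of the 28 tested genes with small-subunit names 8 rose and 2 fell, with a median log2 fold change of 0.23. The subunit classes follow the symbols and not the place of each protein. Mrps12, the counterpart of the bacterial decoding-site protein S12, had 21.2, 21.3 and 23.6 CPM with IR-813 and 31.5, 32.3 and 48.5 CPM with PSNPs. The groups were well apart, and the log2 fold change was 0.76 ± 0.18 (edgeR adjusted p = 0.0149), or 0.54 ± 0.07 without PSNPs replicate 3. Mrps36, a protein that is now placed in the 2-oxoglutarate dehydrogenase complex rather than in the ribosome, had 17.4, 19.7 and 20.4 CPM against 29.1, 26.0 and 34.6 CPM. It rose by a log2 fold change of 0.64 ± 0.14 (edgeR adjusted p = 0.00948), and was the only mitochondrial name to pass in all 15 alternative settings.

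Mrps24 rose by 0.61 ± 0.18, with 23.4, 21.0 and 25.4 CPM against 31.3, 29.7 and 46.0 CPM. Mrps17, Mrps23, Mrps21, Mrps14 and Mrps33 rose by 0.60, 0.58, 0.56, 0.47 and 0.46 on the log2 scale, and in each of them the groups did not overlap. The 2 that fell encode counterparts of conserved bacterial small-subunit proteins. Mrps2 had 80.0, 79.6 and 75.4 CPM with IR-813 and 60.0, 59.2 and 65.0 CPM with PSNPs, at −0.35 ± 0.08 (edgeR adjusted p = 0.0137). Mrps10 had 8.28, 8.80 and 7.36 CPM against 4.78, 5.57 and 6.68 CPM, at −0.52 ± 0.16 (edgeR adjusted p = 0.0398). In both, all PSNPs libraries lay below all IR-813 libraries and PSNPs replicate 3 was the nearest to them. Without it the estimates were −0.39 ± 0.05 and −0.66 ± 0.14.

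Of the 37 tested mitochondrial genes with large-subunit names 9 rose and 0 fell, with a median log2 fold change of 0.26. Over the mitochondrial set, 2 genes had an unadjusted p under 0.05 and a negative estimate by edgeR, the same number as were called lower. Mrpl34 had 18.3, 17.1 and 20.1 CPM with IR-813 and 27.3, 25.7 and 36.5 CPM with PSNPs, at 0.69 ± 0.16 (edgeR adjusted p = 0.0124). Mrpl13 had 31.6, 28.1 and 32.3 CPM against 41.2, 41.7 and 53.1 CPM, at 0.56 ± 0.13 (edgeR adjusted p = 0.0133). In both genes the groups were apart, and PSNPs replicates 1 and 2 agreed closely. Mrpl54 had 41.9, 46.2 and 49.5 CPM against 62.3, 59.9 and 84.9 CPM, at 0.59 ± 0.15 (edgeR adjusted p = 0.0205). Mrpl41, Mrpl44, Mrpl20, Mrpl4, Mrpl42 and Mrpl49 rose by 0.54, 0.48, 0.44, 0.36, 0.36 and 0.26. Mrpl44, which has the fold of a ribonuclease III, and Mrpl49 had 32.9 ± 3.53 and 31.3 ± 0.631 CPM (SD, n = 3) with PSNPs, against 23.5 ± 1.49 and 26.2 ± 0.562 CPM with IR-813. Neither of them is covered by the naming rule. The call of Mrpl49 held in 5 of 15 alternative settings, and with the length offset its estimate turned to −0.08 (edgeR adjusted p = 0.641).

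Mrpl12, which binds the mitochondrial RNA polymerase, had 72.9, 72.1 and 72.5 CPM with IR-813 and 77.0, 69.4 and 104.6 CPM with PSNPs, at 0.21 ± 0.15 (edgeR adjusted p = 0.312). Mrpl18, which takes part in 5S ribosomal RNA import, was at 0.34 ± 0.15 (edgeR adjusted p = 0.112). The 3 paralogues of bacterial S18 are all parts of the mitochondrial ribosome, and Mrps18a, Mrps18b and Mrps18c stood at 0.14 ± 0.17, 0.03 ± 0.15 and 0.34 ± 0.14, none past the test. Mrps30, also known as PDCD9, was at 0.02 ± 0.13. Without PSNPs replicate 3, 8 further mitochondrial genes were lower, namely Mrpl45, Mrps22, Mrpl38, Mrpl19, Mrps26, Mrpl15, Mrps9 and Mrpl48, between −0.45 ± 0.07 for Mrpl45 and −0.15 ± 0.06 for Mrpl48. Mrpl45, a membrane anchor of the mitochondrial ribosome, had 77.2, 71.6 and 67.9 CPM with IR-813 and 52.7, 52.6 and 70.4 CPM with PSNPs, where PSNPs replicate 3 fell within the IR-813 range. These 8 were named after their values were seen.

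By level, the 2 sets were far apart. The median tested cytosolic gene had 526 ± 14.9 CPM (SD, n = 3) with IR-813 and 620 ± 133 CPM in the PSNPs group, while the median mitochondrial gene had 31.5 ± 0.845 and 39.0 ± 7.18 CPM. In the deposited values, which behave as levels scaled for length, the cytosolic set made up 15.5% ± 0.152 (SD, n = 3) of the summed unlogged values with IR-813 and 16.4% ± 2.13 with PSNPs. The mitochondrial set made up 0.477% ± 0.00436 and 0.504% ± 0.0410. On that length-scaled level, Rpl41 (3350), Rplp1 (3234), Rps29 (2419) and Rps2 (2263) led the cytosolic set and Mrps21 (118), Mrpl23 (106) and Mrpl54 (103) the mitochondrial set, as means over the IR-813 libraries. These leaders were named for their level after it was seen.

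Not every ribosomal protein gene was measured. Rpl35a, Rpl39, Rplp2, Rps20, Rps6, Mrpl30, Mrpl36 and Mrpl53 were listed at 0 in all 6 libraries, although several of them encode proteins that every cytosolic ribosome holds. Rpl39l, Rpl3l, Rpl7a, Rps4x-ps1, Rps9 and Mrpl1 had at most 6, 2, 1, 1, 2 and 5 counts in any library and did not pass the filter. Rpl9 passed it but stayed under 1.2 CPM, and Rps19, Rpl37 and Rpl8 had means of 14.8, 22.2 and 54.5 CPM with IR-813, far under the median of their set. Rpl37a stood at 59.1 CPM with IR-813 and the pseudogene-named Rpl37a-ps1 at 348 CPM. These levels are the reads that the authors' counting gave to each symbol. How reads of near-identical copies were counted is unknown from the sources used here, so these values are uncertain, and the cause of the values at 0 was not tested.

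The difference between the groups moved with a proxy of gene length, which was not checked against annotated lengths. This proxy was the count per unit of the deposited value, which behaves as scaled for length. It put 72 of the 75 cytosolic and 46 of the 65 mitochondrial genes in the shortest of 5 equal length classes. The 2075 other genes in that class had a median log2 fold change of 0.24, and 32.0% of them were called higher. In PSNPs replicate 3 the medians of other genes, from the shortest to the longest class, were 0.43, 0.21, 0.03, −0.18 and −0.60 relative to the IR-813 mean. In PSNPs replicates 1 and 2 they ran from 0.14 to −0.13 and from 0.13 to −0.10. The slope with the length proxy had the same direction in all 3 PSNPs libraries and was steepest in replicate 3.

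The 301 other genes that were both in the shortest class and in the highest of 5 level classes had medians of 0.19, 0.16 and 0.58 in PSNPs replicates 1 to 3. The cytosolic ribosomal protein genes had 0.10, 0.08 and 0.61, and the mitochondrial genes 0.12, 0.11 and 0.52. In the fit of all libraries, these 301 genes had a median log2 fold change of 0.32, and 42.5% were called higher. The 64 cytosolic genes of the same class had a median of 0.29. Across genes, which are not independent and share the same libraries, the Spearman correlation of the log2 fold change with the length proxy was −0.53 over 65 mitochondrial genes, −0.11 over 75 cytosolic genes and −0.31 over all 10961 with a proxy.

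**Figure D4:**
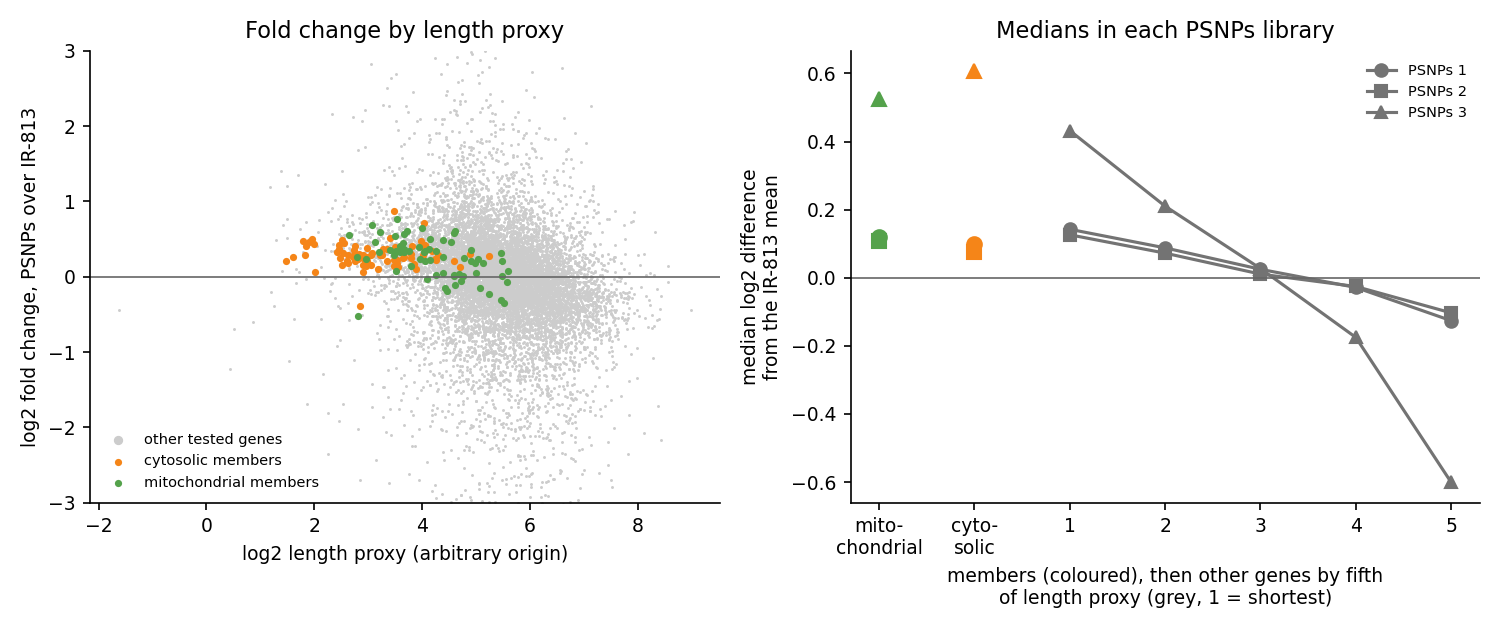
Left, log2 fold change against the log2 length proxy for 10863 tested genes (grey, with 98 others beyond the axis limits) and for the cytosolic (orange) and mitochondrial (green) genes. Right, median log2 difference from the IR-813 mean in each PSNPs library for the 2 sets and for other genes in 5 length classes. In PSNPs replicate 3 other genes fall from 0.43 in the shortest class to −0.60 in the longest, and the 2 sets stand at 0.61 and 0.52.

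With a length offset in the edgeR fit, 23.8% of 10961 genes were called higher and 23.4% lower. The median of the cytosolic set was then −0.06, with 2 genes higher, Rps27l at 0.54 (edgeR adjusted p = 0.000496) and Rpl11 at 0.20 (edgeR adjusted p = 0.0484), and 10 lower. Among the 10 were Rps19bp1, Rpl35, Rps12, Rpl38, Rps13, Rps25, Rpl23a, Rpl30 and Rps29, at −0.73 for Rps19bp1 and between −0.22 and −0.15 for the others named. The direction of the cytosolic set as a whole therefore depended on this term. The mitochondrial median was 0.04, with 11 genes higher and 8 lower. The 11 were all among the 17 called without the offset, led by Mrps12 at 0.44, Mrps17 at 0.41, Mrps23 at 0.38, Mrps36 at 0.38 and Mrpl34 at 0.34. Mrps10 at −0.88 and Mrps2 at −0.37 were still lower, beside Mrps22, Mrpl19, Mrpl47, Mrps26, Mrpl38 and Mrpl15. So 2 cytosolic and 11 mitochondrial genes rose, and 2 mitochondrial genes fell, in all 3 of the fits with all libraries, without PSNPs replicate 3 and with the length offset.

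Among tested cytosolic genes with a RefSeq window, the 31 with a pyrimidine run within 1 base of the start had a median log2 fold change of 0.29 and 2 called higher. The 28 without it had 0.29 and 6 called higher. Of all tested genes 20.9% were called higher, and the difference between the 2 classes was not tested. The medians were alike to 2 decimals, and of the genes printed above Rpl37 rose with such a run and Rpl11 and Rps27l without it. These classes depend on the annotated start, since the share of cytosolic windows with a run rose from 36.4% to 51.5% when the C could lie 1 base away. A gene without a run here may still have a TOP message, which was not tested.

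**Figure D5:**
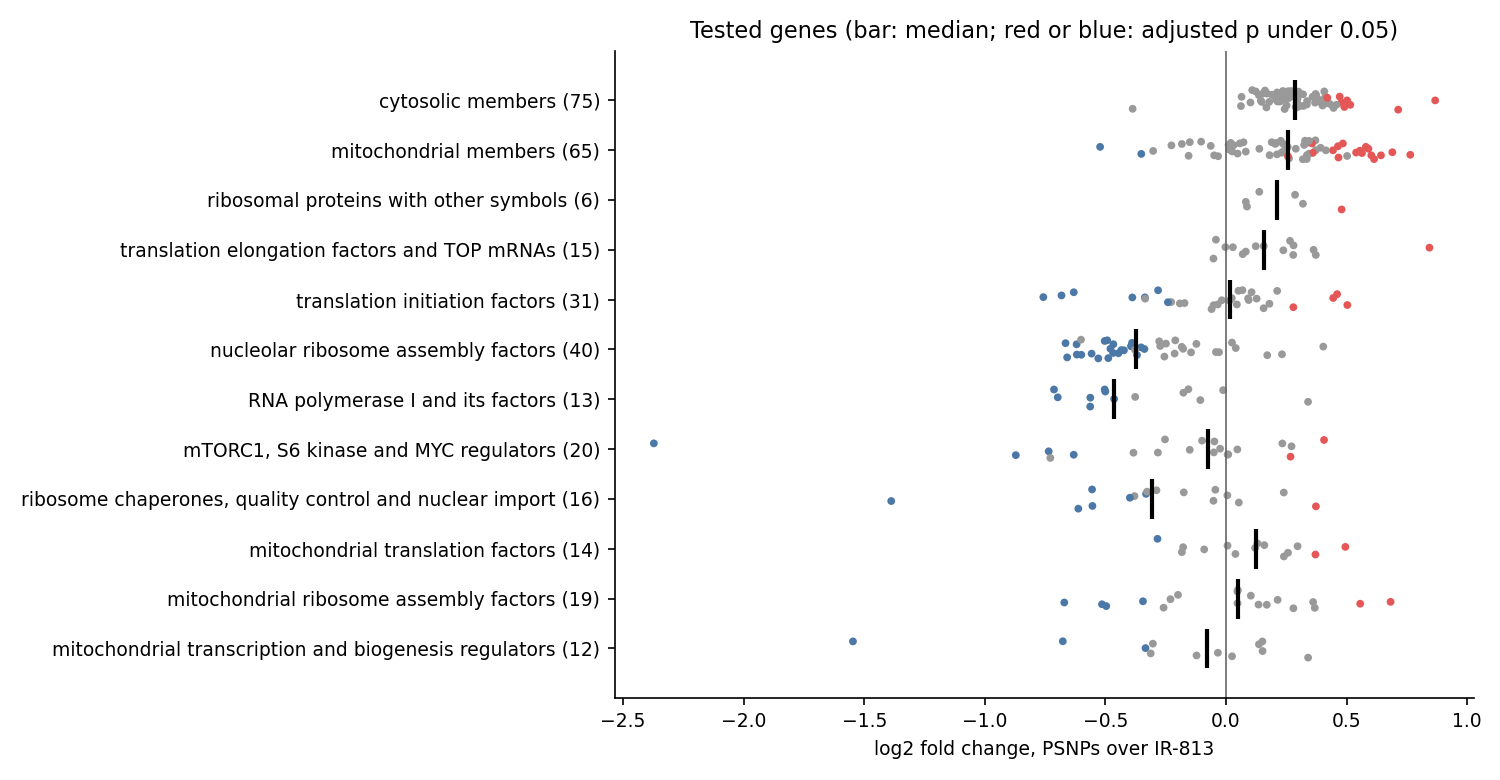
Log2 fold changes of tested genes in the 2 sets and in 10 lists of related genes, with the number tested in brackets, medians as black bars, and genes that passed the test in red (higher) or blue (lower). The nucleolar and RNA polymerase I lists have medians of −0.37 and −0.46, while the 2 ribosomal protein sets stand at 0.28 and 0.26, which became −0.06 and 0.04 with the length offset.

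Genes that help to build the cytosolic ribosome, rather than form part of it, were called lower more than higher. The lists were chosen by function, and their counts stand beside 20.9% higher and 20.1% lower of all tested genes. Of 40 tested nucleolar assembly factors 21 (52.5%) fell and 0 rose, with a median log2 fold change of −0.37. At an unadjusted p under 0.05 edgeR had 2 higher and 24 lower. DESeq2, at an adjusted p under 0.05, called 0 higher and 22 lower. Nolc1, a nucleolar scaffold, had 280, 276 and 253 CPM with IR-813 and 184, 178 and 165 CPM with PSNPs, at −0.62 ± 0.08 (edgeR adjusted p = 0.0016). Gnl3 (nucleostemin), a nucleolar GTPase, was at −0.66 ± 0.09 (edgeR adjusted p = 0.00217). All PSNPs libraries of both genes lay below all IR-813 libraries. The count of lower nucleolar genes ranged from 9 without IR-813 replicate 1 or 2 to 32 without PSNPs replicate 3. With the length offset it was 27.

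RNA polymerase I, which transcribes ribosomal RNA, and its factors were lower in 7 of 13 genes (53.8%) and higher in 0, with a median of −0.46. Before adjustment, at p under 0.05, edgeR had 1 higher and 8 lower. DESeq2, at an adjusted p under 0.05, called 0 higher and 7 lower. Taf1b and Taf1c, subunits of the promoter factor SL1, were at −0.70 ± 0.12 and −0.56 ± 0.11 (edgeR adjusted p = 0.00427 and 0.00682). Taf1b had 15.6, 13.9 and 13.2 CPM with IR-813 and 8.27, 8.92 and 9.18 CPM with PSNPs, with no overlap. The count of lower genes ranged from 4 without IR-813 replicate 2 to 11 without PSNPs replicate 3. Of the chaperone, quality control and import factors 6 of 16 (37.5%) fell and 1 rose, with a median of −0.31. Gtpbp2, a rescue factor of stalled ribosomes, had 113.8, 104.7 and 82.6 CPM against 35.0, 38.5 and 41.5 CPM, at −1.39 ± 0.14 (edgeR adjusted p = 0.000544). Usp10, a deubiquitinase of ribosomal proteins, was at −0.55 ± 0.08, and Aamp rose by 0.37 ± 0.11. The count of lower genes of this list was 10 without PSNPs replicate 3.

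Of 20 genes of the mTORC1, S6 kinase and MYC list 4 fell and 2 rose, with a median of −0.08. The share that fell was close to the 20.1% of all tested genes, and the share that rose was below their 20.9%. Sesn2, a leucine-binding inhibitor of mTORC1 and a stress target, had 232, 212 and 156 CPM with IR-813 and 41.9, 41.3 and 32.7 CPM with PSNPs, at −2.37 ± 0.18 (edgeR adjusted p = 0.000187). Myc, a transcription factor that drives ribosome genes, had 164, 162 and 140 CPM against 96.5, 94.0 and 110.7 CPM, at −0.63 ± 0.10 (edgeR adjusted p = 0.00339). Both were lower in every PSNPs library and passed in all 15 alternative settings. Eef2k, the kinase that inhibits elongation factor 2, rose by 0.41 ± 0.08, and Mxi1, a MYC antagonist, by 0.27 ± 0.09. Without PSNPs replicate 3, 6 genes of this list were lower and 4 higher, and without IR-813 replicate 1, 4 and 1.

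Of 31 initiation factors 4 (12.9%) rose and 7 (22.6%) fell, with a median of 0.01, against 20.9% and 20.1% of all tested genes. Eif5 and Eif2s2, which act on the initiator transfer RNA complex, were at −0.68 ± 0.09 and −0.63 ± 0.11, while the eIF3 subunits Eif3f and Eif3k rose by 0.46 ± 0.12 and 0.50 ± 0.15. The counts ranged from 0 to 6 for higher and from 3 to 12 for lower genes over the libraries left out in turn, lowest without IR-813 replicate 1 or 2 and highest without PSNPs replicate 3. Of the 15 elongation factors and other TOP messages 1 rose and 0 fell, with a median of 0.16. Without adjustment, at p under 0.05, edgeR had 3 higher and 0 lower. At an adjusted p under 0.05, DESeq2 called 2 higher and 0 lower, and edgeR without PSNPs replicate 3 called 3 and 1. The 1 that rose was Vim, the intermediate filament vimentin, which had 5134, 5121 and 5355 CPM against 8657, 8741 and 10610 CPM, at 0.84 ± 0.13 (edgeR adjusted p = 0.00309). Of 6 ribosomal proteins with other symbols 1 rose, the mitochondrial small-subunit protein Dap3, at 0.48 ± 0.12 (edgeR adjusted p = 0.019), and 0 fell. With the unadjusted p under 0.05 edgeR also had 1 higher and 0 lower. At an adjusted p under 0.05, DESeq2 called 1 and 0, while with each IR-813 replicate left out in turn edgeR called 0.

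Of 14 mitochondrial translation factors 2 (14.3%) rose and 1 (7.14%) fell, with a median of 0.13. Oxa1l, which inserts new proteins into the inner membrane, and Slirp, which stabilizes mitochondrial messages, rose by 0.37 ± 0.12 and 0.49 ± 0.17, and the recycling factor Mrrf was at −0.28 ± 0.09. Of 19 mitochondrial ribosome assembly factors 2 (10.5%) rose and 4 (21.1%) fell, with a median of 0.05. Rbfa, a maturation factor of the small subunit, had 18.4, 19.2 and 18.9 CPM with IR-813 and 28.6, 25.6 and 36.6 CPM with PSNPs, at 0.68 ± 0.15 (edgeR adjusted p = 0.00987). Tfb1m, the dimethyltransferase of the same subunit's RNA, had 22.7, 21.5 and 21.7 CPM against 13.6, 14.1 and 13.8 CPM, at −0.67 ± 0.09 (edgeR adjusted p = 0.00197). The 2 factors thus stood in opposite directions, each with no overlap between groups. Mpv17l2 rose by 0.56 ± 0.16, and Mrm1, a ribosomal RNA methyltransferase, was at −0.51 ± 0.11. With each library left out in turn, 0 to 4 translation factors were higher and 0 to 2 lower, and 1 to 3 assembly factors were higher and 1 to 6 lower, with 0, 0, 1 and 1 without IR-813 replicate 1 and 4, 2, 3 and 6 without PSNPs replicate 3.

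Of 12 regulators of mitochondrial transcription and biogenesis 3 (25%) fell and 0 rose, with a median of −0.08, against 20.1% lower and 20.9% higher of all tested genes. At an unadjusted p under 0.05 edgeR had 1 higher and 4 lower. DESeq2, at an adjusted p under 0.05, called 0 higher and 3 lower. The coactivators Ppargc1b and Pprc1 led them. Ppargc1b had 5.33, 4.98 and 4.53 CPM with IR-813 and 1.75, 1.91 and 1.41 CPM with PSNPs, at −1.55 ± 0.17 (edgeR adjusted p = 0.000781). Pprc1 had 116.8, 114.0 and 98.7 CPM against 71.5, 73.3 and 61.3 CPM, at −0.68 ± 0.11 (edgeR adjusted p = 0.00322). Every PSNPs library lay below every IR-813 library for both genes. Without PSNPs replicate 3 edgeR called 2 genes of this list higher and 4 lower, and without IR-813 replicate 1 it called 0 and 2.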

How the data were processed

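The authors deposited raw read counts by gene symbol (whole numbers) covering the 6 libraries, and 1 file per library of log2 values whose scaling is not given per the labels. Both bcl2fastq and the build mRatBN7.2 are named in the submitters' processing notes. Aligner, counting program, annotation and strandedness were not given in the sources used here. Overlapping and antisense genes therefore could not be told apart.

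Groups and replicate numbers came from the sample titles. Counts were filtered with filterByExpr (minimum count 10), scaled by TMM and tested with edgeR 4.0.16 (R 4.3.3) by the quasi-likelihood test with treatment as the only term. The p-values were adjusted by Benjamini-Hochberg over 11679 genes, with calls under 0.05. CPM use TMM-scaled library sizes. A standard error is the size of the log2 fold change divided by the square root of F. The length proxy was the count divided by the unlogged deposited value, with the library factor removed. The length offset was a smooth of each library's deviation on that proxy, fitted over all tested genes with a proxy, the ribosomal protein genes included. Only the main edgeR fit was run on simulated data. Those data had no trend with length and no library that stood apart, so they do not cover these features or the alternative fits.

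The members and lists were chosen with earlier results of these data known, so counts and medians of lists carry no test. Named genes were, in each of the 4 subunit classes, the 3 largest and 3 smallest log2 fold changes among called genes of at least 5 CPM, the 2 smallest p, a list of genes named whatever their values, and the 2 smallest p in each direction of each list. Alternatives were DESeq2 1.42.0, limma 3.58.1 on the deposited log2 values, other scalings and filters, the length offset, the replicate numbers as a block and each library left out. Values of 1 cytosolic gene are not reported here singly.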

Additional observations from a re-analysis of the deposited data

How the results depend on the processing

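Counts of called cytosolic and mitochondrial genes moved with the settings. On library size alone 1 cytosolic and 9 mitochondrial genes were higher, the median of all genes moved to −0.09, and the higher share of all calls went from 50.9% to 40.5%. With the length offset 2 cytosolic genes were higher, 10 lower, and the median was −0.0564; 11 mitochondrial genes were higher and 8 lower. On the deposited log2 values limma called 2 cytosolic genes higher. Same-numbered libraries did not deviate together (correlations of 0.0065, 0.0151 and 0.1385), so the numbers were not taken as pairs; with the replicate number as a block, 4 cytosolic and 12 mitochondrial genes were higher and 0 and 1 lower. Leaving out each library in turn gave 1 to 22 cytosolic genes higher and 0 lower, 2 to 23 mitochondrial genes higher and 0 to 10 lower, medians of 0.09 to 0.38 and 0.10 to 0.35, summed ratios of 1.065 to 1.293 and 1.052 to 1.223, and 1339 to 3591 higher and 1473 to 3478 lower genes in all. The cause of these changes was not tested.

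Of the 140 tested genes 64 changed sign with the length offset and 25 without PSNPs replicate 3. Among the 27 called with all libraries, Mrpl49 alone changed sign under any of the 15 settings, at −0.0793 with the length offset (edgeR adjusted p = 0.641). The genes below that changed sign are covered by the naming rule, apart from Rpl9, Rps19 and Fau, which were added to it. None of them was called with all libraries. With the length offset Mrps18a was at −0.16, Mrps18b at −0.2149, Mrps30 at −0.1528, Rpl10 at −0.0632, Rpl22l1 at −0.0736, Rpl26 at −0.1522, Rpl5 at −0.0205, Rpl7 at −0.1138, Rplp1 at −0.1646, Rps27 at −0.1135, Rps3 at −0.0519, Rpl9 at −0.1435, Rps19 at −0.2543 and Fau at −0.0492. Without PSNPs replicate 3 Mrps18a was at −0.0777, Mrps18b at −0.143, Mrps30 at −0.1159 and Rplp1 at −0.011. On library size alone Mrps18b was at −0.0474, Mrps30 at −0.0576 and Rps19 at −0.01. Without PSNPs replicate 1 Rpl9 was at −0.2142 and Rps19 at −0.0127. Without IR-813 replicate 3 Mrps18b was at −0.0511 and Mrps30 at −0.0206, and without IR-813 replicate 2 Mrps30 was at −4e-04. Over each library left out in turn, these genes reached at most 0.2435 (Mrps18a), 0.1285 (Mrps18b), 0.0926 (Mrps30), 0.3165 (Rplp1), 0.344 (Rpl9) and 0.1474 (Rps19). The other comparisons each set 1 gene, or 1 count of called genes in a list, under 1 setting against the main fit. Of these, 1061 were alike, by direction and side of the threshold for a gene or by a similar count for a list. In 143 a gene lost the call, in 6 a gene gained it, and in 81 a list count moved.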
